A study of Homo sapiens with 24 samples.

Results

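The transcriptome of U251 cells was compared between 4 arrays of cells exposed to the IC50 dose of G-1 for 72 h and 4 arrays of cells exposed to DMSO for 72 h, which together are 8 of the 24 arrays of the study. The arrays were chosen by their titles alone. U251 is an established human glioblastoma (GBM) cell line, so the sample holds tumor cells with neither stroma nor immune cells. G-1 is a synthetic agonist of GPER1, the G protein-coupled estrogen receptor. Its IC50 dose had been taken by the study from a 72 h viability assay and lies below 1 µM, the other dose used, and DMSO is the solvent of the compound, given as 0.1% in the sample labels (the methods give another percentage). All cells, controls included, were kept for 24 h in medium with charcoal-stripped serum, which removes steroid hormones, before the exposure. The 4 replicates of a group are labelled as independent biological replicates of a single cell line. The other arrays, 4 per group, are G-1 1 µM at either duration, and the 24 h arrays of both DMSO and IC50. They entered the model as an estimate of the spread and are named below only beside the genes of this comparison.

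Cells that burn fatty acids first bind them to coenzyme A and then carry them into the mitochondrion as carnitine esters, and many genes of this route are switched on by the PPAR family of nuclear receptors, for which fatty acids are ligands. Retinoic acid acts through a related family of nuclear receptors, the RARs. It is made from retinol by way of retinaldehyde, and a set of enzymes moves the intermediate back and forth. GPER1 itself signals through heterotrimeric G proteins, whose activity is ended by RGS proteins. Glioblastoma cells are known for active lipid handling and for a matrix rich in chondroitin sulfate.

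The values are log2 fluorescence intensities of single probes relative to the 75th percentile of the same array, so a level of 0 lies at that percentile and a difference of 1 is a 2-fold change. With 3 of its 4 probes, GPER1 gave a signal well above background on each of the 24 arrays. Its brightest probe had a level of 2.11 ± 0.07 (SD, n = 4) in DMSO and 2.06 ± 0.09 in G-1 IC50, a log2 difference of -0.05 (SE 0.10; limma, adjusted p = 0.93). The 3 probes of ESR1 and the 2 probes of ESR2, the nuclear estrogen receptors, were above background on 0 of the 24 arrays. Of the 15 astroglia and glioma markers, 11 were above background on all 8 arrays, and AQP4, SLC1A2, ALDH1L1 and OLIG2 were above it on 0. Their summed level, on a linear scale relative to the 75th percentile, was between 1594 and 1829 in DMSO and between 1575 and 1860 in G-1 IC50. Of the immune markers, 6 of 7 were below background on all 8 arrays, and the summed levels of the endothelial markers overlapped between the groups (1.93 to 2.17 and 1.84 to 2.28), as did those of the epithelial markers (22.6 to 26.0 and 18.7 to 22.9). The 6 neuronal markers, all above background, summed to between 132 and 156 in DMSO and between 157 and 171 in G-1 IC50, with no overlap and with 0 of the 6 past an adjusted p of 0.05 in limma. Whether this moves with any gene below was not tested. Replicates of either group correlated between 0.992 and 0.996 over the tested probes. The 8 arrays lay on 2 slides of 8 arrays. Slide 1 held 2 DMSO arrays and 1 G-1 IC50 array, and slide 2 held 2 and 3. Differences within each slide are given below for ANGPTL4, DHRS3, RGS16 and ITGB3, and at the end for several other called genes.

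At this dose and duration, 21 of 17927 genes were called, at an adjusted p under 0.05 in limma and an absolute fold change above 2, which is 0.117% of those tested. Of these, 10 rose and 11 fell, and 19 have a gene symbol. Without the fold threshold, 144 genes (0.803%) passed. Among the 14235 genes with a symbol, 65 were higher (0.457%) and 72 lower (0.506%) at an adjusted p under 0.05, and 118 of these 137 changed by less than 2-fold. The 4 arrays of one group lay apart from the 4 of the other for all 21 called genes and for 136 of the 137. Of all genes with a symbol, 7.54% did so (381 higher and 693 lower in G-1 IC50). The called and changed genes were picked by adjusted p on these arrays, so their separation is largely fixed by that choice. Of the 137 genes, 126 were above background on all 8 arrays. All 137 had the same direction within slide 1 and within slide 2, which for the 136 follows from the separation of the groups. An exact permutation test of 4 arrays against 4 (two-sided) gave each called gene p = 0.0286. Separate groups always give this value, the smallest that this design allows, so it adds nothing to the separation. The median log2 change of all genes was -0.02, and 44.4% lay above 0. When the 50th percentile took the place of the 75th, the median of all tested probes moved from -0.02 to 0.06, 13 of 20 called genes and 45 of 66 genes past an adjusted p of 0.05 were higher, against 10 of 21 and 68 of 144, and 893 of 1136 separate genes were higher.

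The strongest change, ANGPTL4 at 6.07, stood far from the rest, and DHRS3 had the highest mean level of the genes beyond 2-fold. Of the 21 called probes, 10 were among the dimmest 20% of tested probes and 11 had a signal well above background on each of the 8 arrays. Of the 146 genes with a mean level above 9, 3 had a change above 0, with a median of -0.15, and 0 of the changed genes belong to them. With normexp background correction in place of the processed signal, all 19 called genes with a symbol had smaller differences, of which 15 kept an adjusted p under 0.05 and 3 (ANGPTL4, DHRS3 and ITGB3) stayed beyond 2-fold.

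**Figure D1:**
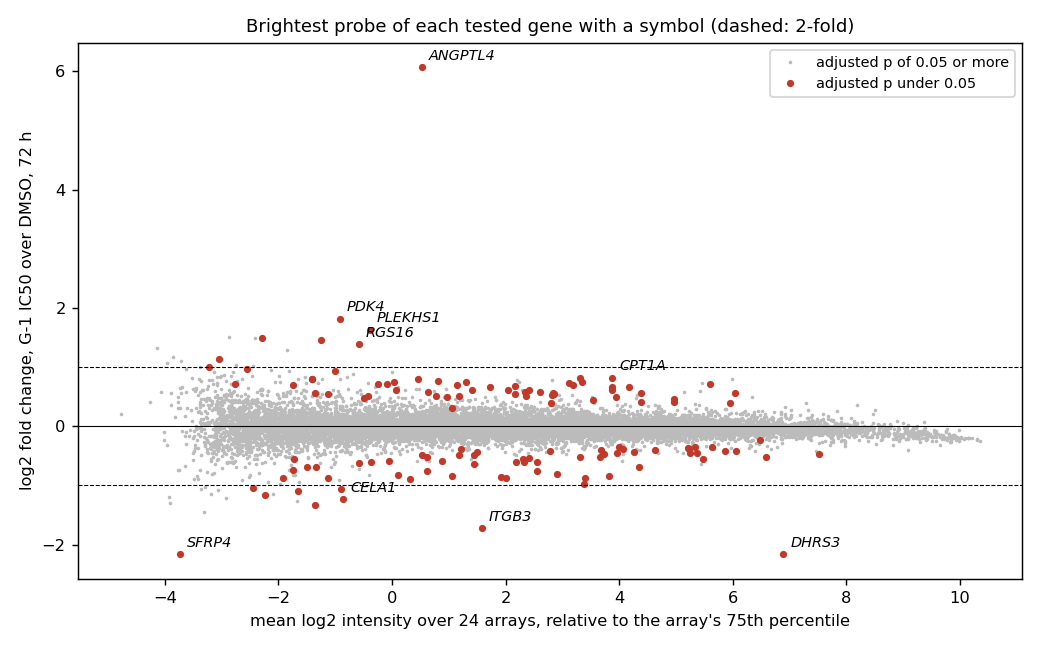
Log2 fold change of G-1 IC50 over DMSO at 72 h (vertical axis) against the mean log2 level over 24 arrays (horizontal axis), 1 point for the brightest probe of each of 14235 genes. Red points passed an adjusted p of 0.05 in limma and dashed lines mark 2-fold. Most red points lie inside the dashed lines, ANGPTL4 stands alone at 6.07, and DHRS3 at -2.17 is the brightest gene beyond them.

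Genes controlled by PPAR, many of them enzymes of fatty acid oxidation, were the list with the most members that rose. Of 33 tested PPAR target genes, 8 were higher and 0 lower at an adjusted p under 0.05 (limma). Over all genes with a symbol 0.457% were higher and 0.506% lower, and these shares also stand beside the list counts below. The list median was 0.10 against -0.02 for all genes. ANGPTL4 encodes a secreted inhibitor of lipoprotein lipase. Its levels were -1.87, -2.29, -3.64 and -3.23 on the 4 DMSO arrays and 4.03, 3.92, 2.56 and 2.75 on the 4 G-1 IC50 arrays. All 4 treated arrays lay above all 4 controls, of which only 2 were above background. The log2 difference was 6.07 (SE 0.51; limma, adjusted p = 7.1e-07), a 67.3-fold rise, and it was 6.68 within slide 1, 5.87 within slide 2 and 3.98 with normexp. PDK4 encodes the kinase that switches off the pyruvate dehydrogenase complex and so spares glucose. It measured -1.70, -1.30, -2.27 and -1.93 in DMSO and 0.16, 0.04, -0.39 and 0.27 in G-1 IC50, without overlap between the groups. The difference was 1.82 (SE 0.22; limma, adjusted p = 0.00015), or 3.53-fold, and 0.99 with normexp. PDK4 was the only one of 33 tested genes of pyruvate dehydrogenase control and glycolysis to pass.

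The promoters of these 2 genes are shown because they rose together by the largest factors among the PPAR targets. Each is the RefSeq sequence (GRCh38.p14) of the 250 bases before the transcription start, and capitals mark TATAAA or AGGTCA, the hexamer to which PPAR, RAR and other nuclear receptors bind, on either strand.
ANGPTL4, chr19:8363905-8364154, plus strand: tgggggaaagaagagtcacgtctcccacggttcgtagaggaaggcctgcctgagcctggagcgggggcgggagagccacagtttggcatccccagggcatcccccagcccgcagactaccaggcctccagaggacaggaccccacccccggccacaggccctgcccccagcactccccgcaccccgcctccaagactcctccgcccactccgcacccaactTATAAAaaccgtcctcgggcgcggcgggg
PDK4, chr7:95596517-95596766, minus strand: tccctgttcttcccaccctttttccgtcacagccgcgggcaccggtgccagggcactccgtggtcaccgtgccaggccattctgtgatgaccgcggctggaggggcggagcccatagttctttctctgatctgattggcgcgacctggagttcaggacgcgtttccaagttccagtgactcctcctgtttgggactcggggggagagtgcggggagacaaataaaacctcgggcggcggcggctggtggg
The ANGPTL4 promoter holds TATAAA at position -29 from the start, and neither motif was found in that of PDK4. Promoters from 250 bases before to 50 after the start were matched for 14 of the 19 called genes with a symbol. AGGTCA on either strand was in 2 of the 14 (CFAP107 and LINC02384), in 12 of 104 promoters of genes with an adjusted p under 0.05, in 10.05% of the 11264 promoters of tested genes and in 13.94% of all 27305 promoters. 2 copies of it as a direct repeat, with 1 or with 5 bases between, were in 0 of the 104. These repeats were in just 6 and 1 of all 27305 promoters, so the 0 says nothing particular about these genes. TATAAA was in 5 of the 14 (ANGPTL4, CELA1, CFAP107, SLC44A5 and VPS13D), in 10 of the 104, in 6.117% of the promoters of tested genes and in 11.95% of all.

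The few genes of the carnitine route and of beta-oxidation that passed changed by less, with little spread between arrays. CPT1A, the rate-limiting carnitine acyltransferase of the outer mitochondrial membrane, lay between 3.40 and 3.52 in DMSO and between 4.23 and 4.33 in G-1 IC50. Its difference of 0.82 (SE 0.06; limma, adjusted p = 1.6e-07) had the smallest adjusted p of all named genes. SLC25A20, which carries acylcarnitines across the inner membrane, rose by 0.54 (adjusted p = 0.0032). ACAA2, the thiolase of the last step, rose by 0.61, and ECH1, an isomerase needed for unsaturated fatty acids, rose by 0.56. Neither overlapped between the groups. CAT, the peroxisomal catalase, rose by 0.62, and IMPA2, an inositol monophosphatase, rose by 0.89 and 0.72 with its 2 probes. Of 26 genes of mitochondrial fatty acid oxidation, 3 were higher and 0 lower, and the median of the list was 0.05. These 3 (CPT1A, SLC25A20 and ACAA2) are also among the 8 of the PPAR list, so the 2 counts are not separate results. The other 23 had adjusted p-values above the threshold.

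3 genes of fatty acid activation and 1 of monoacylglycerol breakdown also rose. ACSBG1, an acyl-CoA synthetase of the bubblegum family, measured -0.946, -1.004, -1.727 and -1.004 in DMSO and 0.22, 0.74, 0.11 and 0.09 in G-1 IC50. The groups were separate, and the difference was 1.46 (SE 0.25; limma, adjusted p = 0.0036), or 2.76-fold. ACSL3, a synthetase of the endoplasmic reticulum and lipid droplets, rose by 0.56, and SLC27A3, a fatty acid transport protein, by 0.57. These 3 were the members of 26 in fatty acid synthesis and activation that passed, all higher. MGLL, the lipase that splits monoacylglycerols and their endocannabinoid forms, lay at 1.17, 1.12, 1.36 and 1.15 in DMSO and at 2.11, 2.66, 2.08 and 1.99 in G-1 IC50. Every treated array was above every control, and the difference was 1.01 (SE 0.13; limma, adjusted p = 0.00035) with this probe and 0.75 with the brighter one. It was the only one of 23 genes of triglyceride storage and lipolysis to pass. Of 15 genes of cholesterol efflux and LXR targets, ABCA1, the exporter of cholesterol, rose by 0.46 and LPCAT3, which remodels phospholipids, by 0.42. The 28 genes of sterol synthesis and uptake gave 0 calls in either direction at an adjusted p under 0.05 (limma), with a median of 0.17 and 24 of 28 above 0. ACAT2 and CYP51A1 had differences of 0.09 and 0.13.

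In the retinoic acid pathway, 5 genes fell and 1 rose. Of 23 tested, these 5 were lower and 1 higher at an adjusted p under 0.05 (limma). Over all genes with a symbol the shares were 0.506% lower and 0.457% higher. The list median was -0.19, with 5 of 23 above 0. DHRS3 reduces retinaldehyde to retinol and is itself induced by retinoic acid. It measured 8.04, 8.10, 7.88 and 8.09 in DMSO and 6.18, 6.04, 5.68 and 5.54 in G-1 IC50. The groups lay far apart with a difference of -2.17 (SE 0.20; limma, adjusted p = 3.9e-06), a 4.49-fold fall that was -2.06 within slide 1 and -2.16 within slide 2. STRA6, the cell-surface receptor that takes up retinol, ranged from 2.669 to 3.099 in DMSO and from 1.87 to 2.40 in G-1 IC50. Its difference was -0.75 (SE 0.13; limma, adjusted p = 0.0055), and its dimmer probe gave -0.75 as well without passing the test (adjusted p = 0.48). PLAAT4 and RAI14, both known to be induced by retinoids, fell by 0.56 and 0.46, and BCO2, which cleaves carotenoids, fell by 0.62. RDH10, which oxidizes retinol to retinaldehyde and so works opposite to DHRS3, rose by 0.67 (SE 0.14; limma, adjusted p = 0.028). Outside the list, HOXB3 and HOXB4, homeobox genes named here after their values were seen, fell by 0.49 and 0.73, and the antisense transcript RARA-AS1, among the 15 lowest genes, fell by 0.87.

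The promoters of DHRS3 and STRA6 are shown as those of the 2 pathway members with the largest falls, in the same form as above.
DHRS3, chr1:12618211-12618460, minus strand: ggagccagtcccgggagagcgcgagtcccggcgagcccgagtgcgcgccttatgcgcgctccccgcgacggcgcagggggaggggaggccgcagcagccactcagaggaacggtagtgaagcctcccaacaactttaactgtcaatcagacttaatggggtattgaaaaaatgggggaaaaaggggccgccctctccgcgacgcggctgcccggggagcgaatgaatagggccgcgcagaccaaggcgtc
STRA6, chr15:74212260-74212509, minus strand: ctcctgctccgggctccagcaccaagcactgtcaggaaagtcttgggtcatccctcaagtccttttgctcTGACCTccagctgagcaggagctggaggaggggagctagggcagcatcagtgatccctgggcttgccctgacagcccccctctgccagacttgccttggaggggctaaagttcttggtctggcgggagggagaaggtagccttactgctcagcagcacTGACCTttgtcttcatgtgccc
Neither AGGTCA nor TATAAA was found in the DHRS3 window, and the STRA6 window holds AGGTCA 2 times, in both cases on the opposite strand (read as TGACCT). The window of BCO2 has 1 match.

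Both neighbours of DHRS3 fell with it. In the order of tested genes along chromosome 1, VPS13D, DHRS3 and CFAP107 follow each other, and all 3 are among the 11 genes called lower. VPS13D, a lipid transfer protein, measured -1.18, -1.46, -1.73 and -1.92 in DMSO and -3.11, -2.21, -3.22 and -2.40 in G-1 IC50, with 1 treated array below background. Its difference was -1.16 (SE 0.25; limma, adjusted p = 0.028), and it no longer passed when DMSO replicate 1, 2 or 3 or G-1 IC50 replicate 1 or 3 was left out. CFAP107, a protein of cilia, measured -0.97, -0.76, -1.12 and -0.70 in DMSO and -2.11, -1.54, -1.89 and -2.39 in G-1 IC50. Its groups did not overlap, and the difference was -1.09 (SE 0.20; limma, adjusted p = 0.0075). The start sites lie 388 kb (VPS13D) and 128 kb (CFAP107) from that of DHRS3 in GRCh38.p14. The 3 tested genes before VPS13D and the 3 after CFAP107 had differences between -0.07 and 0.13, with adjusted p-values of 0.85 or more. This row of genes was noticed after the values were seen. Among all 137 changed genes with a symbol, 8 pairs are next to each other in the order of the 14235 tested genes, and all 8 pairs moved in 1 direction. Besides the 2 pairs with DHRS3, they are SFRP4 with EPDR1, HOXB3 with HOXB4 (both pairs lower), ANGPTL4 with RAB11B-AS1, SOCS2 with SOCS2-AS1, LRRC8B with LRRC8C and SNTB1 with HAS2 (all 4 pairs higher). RAB11B-AS1 starts 26.5 kb from ANGPTL4 and rose by 0.61 (adjusted p = 0.0085). No chance level was computed for these pairs.

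**Figure D2:**
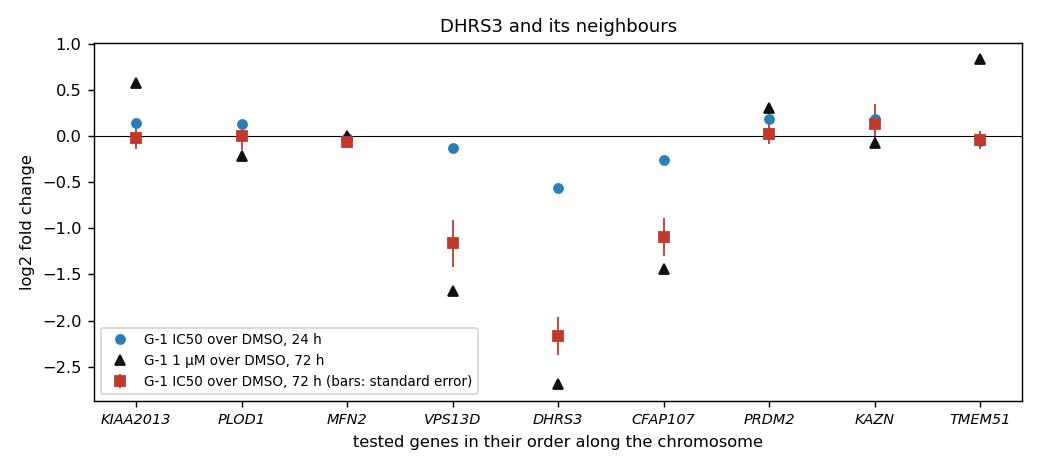
Log2 fold change (vertical axis) of DHRS3 and the 4 tested genes on either side in their order along the chromosome (horizontal axis, not to scale), for G-1 IC50 over DMSO at 72 h (squares, bars: standard error of the fit) and at 24 h (circles) and for G-1 1 µM over DMSO at 72 h (triangles). VPS13D, DHRS3 and CFAP107 lie between -1.09 and -2.17 in the 72 h IC50 comparison and the other 6 genes near 0.

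2 regulators of G protein signalling rose. RGS16, a GTPase-activating protein for G alpha subunits, measured -0.95, -0.67, -0.99 and -0.54 in DMSO and 0.40, 0.88, 0.31 and 0.83 in G-1 IC50. The 2 groups were clearly apart, and the difference was 1.39 (SE 0.15; limma, adjusted p = 3.1e-05), with 1.48 within slide 1 and 1.49 within slide 2. The dimmer probe of RGS16 gave 1.49 without passing (SE 0.37; limma, adjusted p = 0.070). RGS2 rose by 0.74 (SE 0.13; adjusted p = 0.0070). They were 2 of 15 tested RGS genes, with 0 lower and a list median of 0.03. HR, a nuclear receptor corepressor, rose by 1.05 (SE 0.18; limma, adjusted p = 0.0034) with 1 probe, and its brighter probe gave 0.20 (adjusted p = 0.81). It was the only one of 34 tested nuclear receptors and corepressors to pass.

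Several genes of the cell surface and matrix changed. ITGB3, the integrin beta subunit that pairs with the alpha V chain, measured 2.37, 2.06, 1.97 and 1.87 in DMSO and 0.70, 0.35, 0.30 and 0.03 in G-1 IC50. All 4 treated arrays lay below all controls, with a difference of -1.73 (SE 0.23; limma, adjusted p = 0.00035) or 3.31-fold, and -1.62 and -1.83 within the 2 slides. It was the only one of 17 tested integrins to pass, and 0 of 30 integrin ligands and matrix proteins passed (limma). CSGALNACT1, the enzyme that starts the chondroitin chain, measured -2.93, -3.48, -2.69 and -2.69 in DMSO, with 3 arrays above background, and -1.31, -1.36, -1.61 and -1.54 in G-1 IC50. The rise was 1.49 (SE 0.26; limma, adjusted p = 0.0044). CHST15 and CHST11, which sulfate this chain, rose by 0.70 and 0.47, and the 3 were the members of 22 in the chondroitin list that passed. PLAU, the urokinase protease, fell by 0.47 as the only one of 21 matrix proteases to pass. SFRP4, a secreted WNT antagonist, measured -2.58, -2.18, -2.74 and -2.47 in DMSO and -3.96, -5.42, -3.72 and -5.54 in G-1 IC50, where no array was well above background. It was therefore at least 1.91-fold lower, from means of -2.49 and -4.66 (limma, adjusted p = 0.0016), and was the only one of 14 tested WNT antagonists and targets to pass.

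The remaining called genes belong to none of the lists that passed. PLEKHS1, a protein with a lipid-binding PH domain, measured -2.03, -1.93, -2.28 and -2.70 in DMSO and -0.58, 1.11, -1.05 and -0.63 in G-1 IC50, so replicate 2 lay above the other treated arrays. The difference was 1.95 (SE 0.31; limma, adjusted p = 0.0022), 1.63 with its brighter probe and 1.48 without replicate 2. CELA1, a pancreatic-type elastase, measured 0.74, 0.51, 0.53 and 0.89 in DMSO and -0.77, -0.82, -0.51 and -0.17 in G-1 IC50. It fell by 1.24 (SE 0.18; limma, adjusted p = 0.00075) without overlap. ENOX1, a surface NADH oxidase, fell by 1.34 (SE 0.23; adjusted p = 0.0041), and SLC44A5, a choline transporter-like protein, by 1.05 (SE 0.15; adjusted p = 0.00062), both above background on all 8 arrays. The other 3 with a symbol were near background. TMEM169 was above background on 0 DMSO arrays and 4 treated arrays and was at least 1.50-fold higher (means -3.82 and -2.69). It entered the test only through the G-1 IC50 72 h group, where it is high, and did not pass without the filter on dim probes (adjusted p = 0.063). LINC02384 and ARL14EPL were above background on 4 DMSO arrays and 0 treated arrays and were at least 2.12-fold lower (means -2.35 and -3.85) and 1.89-fold lower (means -2.45 and -3.49), and the brighter probe of LINC02384 gave -0.60 (adjusted p = 0.37). These 3 lost their adjusted p when single arrays were left out, LINC02384 in 7 of 8 cases, ARL14EPL in 5 and TMEM169 in 4. The transcript ENST00000416502 was at least 2.92-fold higher (means -3.65 and -1.72, 0 and 4 arrays above background, and likewise tested only through the G-1 IC50 72 h group), and ENST00000661223 fell by 1.12 (SE 0.19; limma, adjusted p = 0.0039).

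**Figure D3:**
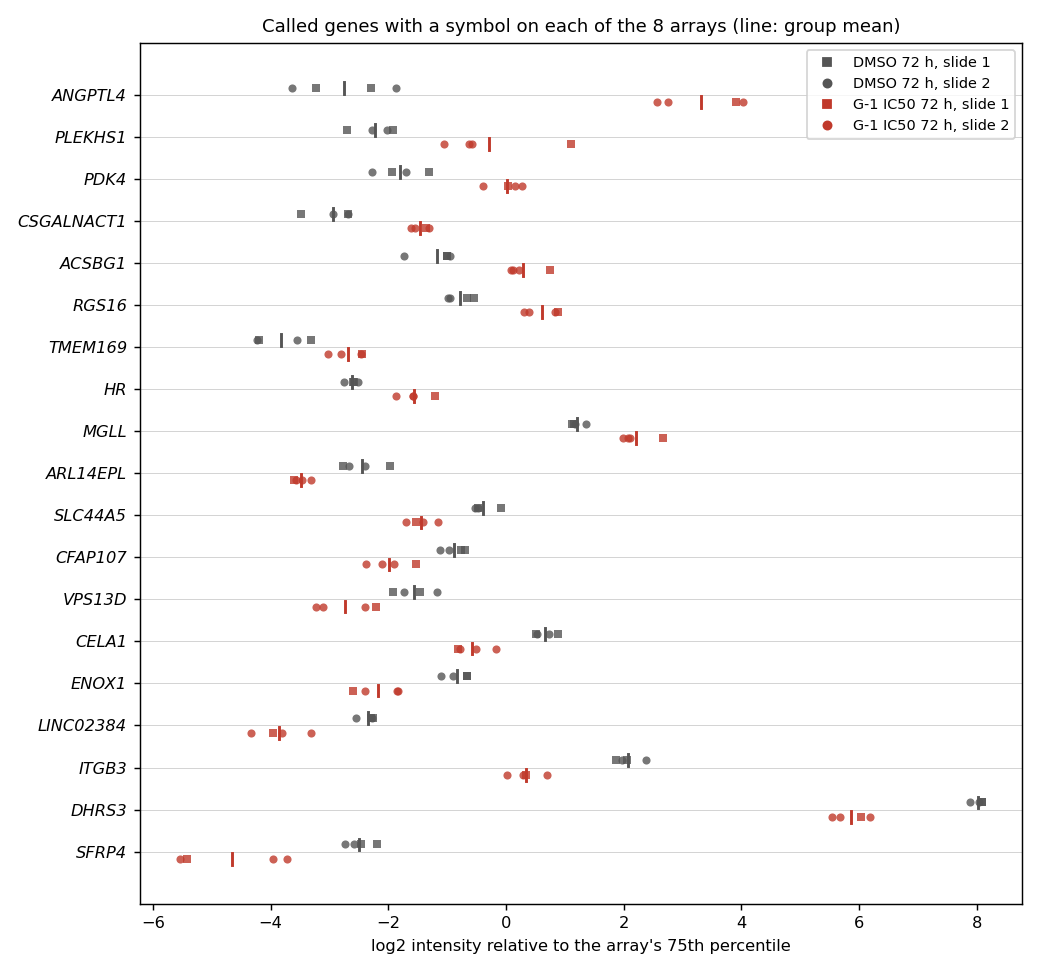
Log2 intensity relative to the 75th percentile of the array (horizontal axis) of the 19 called genes with a symbol, on 4 DMSO arrays (grey) and 4 G-1 IC50 arrays (red) at 72 h, with squares for slide 1, circles for slide 2 and a line at each group mean. Grey and red points do not overlap in any row, and the widest gap is that of ANGPTL4, from -2.76 to 3.31 in the means.

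Among changes under 2-fold, SCG5, a secretory chaperone (0.94), HAUS6, a subunit of the augmin complex that seeds spindle microtubules (0.81), EXTL1, a heparan sulfate enzyme (0.81), and SHC4, an adaptor of receptor kinases (0.80), were among the 15 highest genes. Among the 15 lowest were LTBP3, which binds latent TGF-beta (-0.97), GABRE, a GABA receptor subunit (-0.90), FGF12 (-0.88), QPRT, an enzyme of NAD synthesis (-0.88), and ST6GALNAC2, a sialyltransferase (-0.87). LTBP3 lay between 3.95 and 4.23 in DMSO and between 3.00 and 3.26 in G-1 IC50.

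The lists of cell division genes held no member that passed. Of the 37 genes of mitosis and the spindle checkpoint, 0 passed (limma), their median was 0.08 and 33 of 37 lay above 0, with a highest value of 0.20 (BORA). Of 38 genes of DNA replication, 0 passed with a median of 0.00. Tubulin genes had a median of -0.07, with 3 of 19 above 0 and a range from -0.34 (TUBB4A) to 0.24 (TUBB3). The lists of p53 targets, interferon-stimulated genes, ATF4 targets, ERK feedback genes, TGF-beta and YAP targets, cytokines and estrogen targets also had 0 members past an adjusted p of 0.05, with medians between -0.07 and 0.15. In the lists of HIF targets and of glucocorticoid receptor targets, which share ANGPTL4 with the PPAR list, 1 of 23 and 2 of 15 passed, namely ANGPTL4 and, for the glucocorticoid receptor, PDK4. The HIF list had a median of 0.19 with 22 of 23 above 0. A p-value over the threshold does not show that these genes were unchanged, and 2064 of 22970 probes had an unadjusted p under 0.05.

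**Figure D4:**
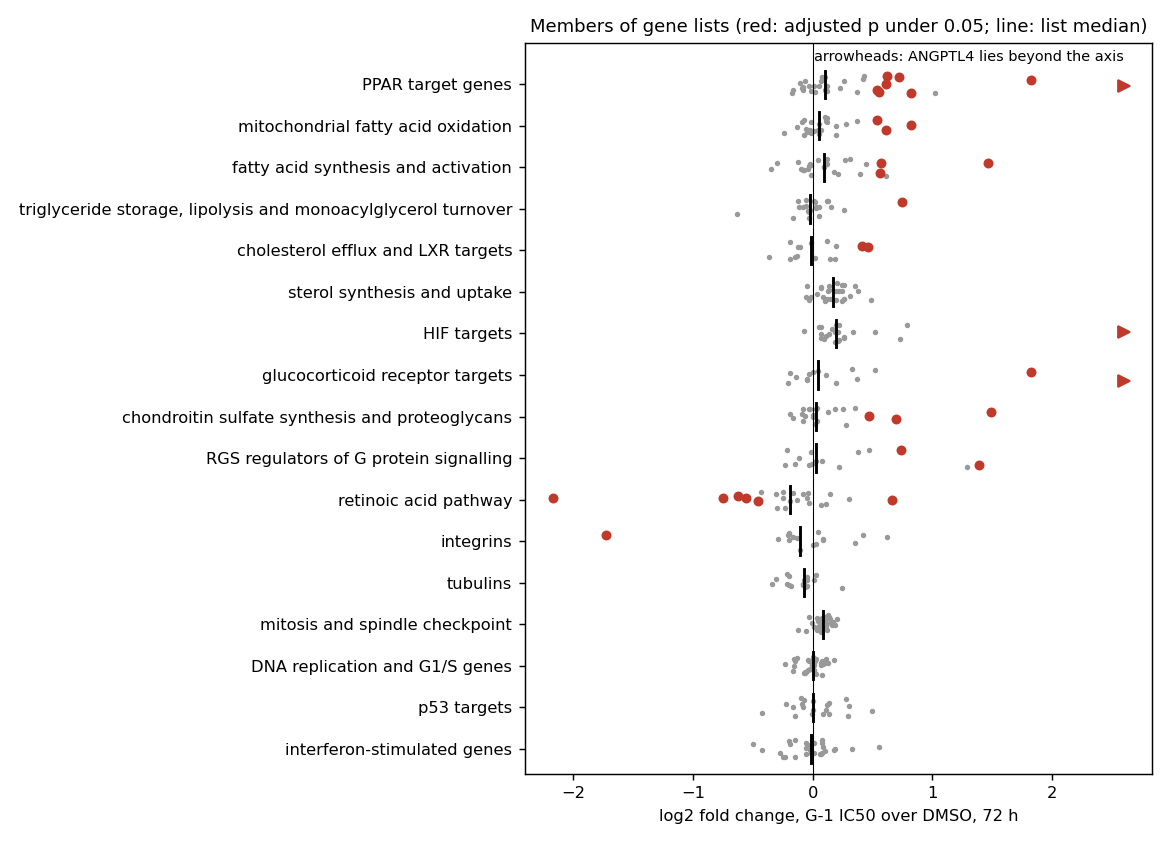
Log2 fold change of G-1 IC50 over DMSO at 72 h (horizontal axis) for the tested members of 17 gene lists (rows), with red for an adjusted p under 0.05 in limma and a black line at the median of the list. Arrowheads stand for ANGPTL4 at 6.07, beyond the axis. Red points are on the right in the lipid rows that hold any and mostly on the left in the retinoic acid row. The sterol synthesis, mitosis, replication, tubulin, p53 and interferon rows hold none.

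To see how the response built up, the values at 24 h of the same dose are set beside those at 72 h, and these comparisons share no array. Of the 21 genes called at 72 h, 18 had the same sign at 24 h, and ANGPTL4 alone had an adjusted p under 0.05 there (log2 3.85, adjusted p = 0.00044), against 0.246% of genes with a symbol at 24 h. PDK4, CSGALNACT1 and ACSBG1 had values of 1.05, 1.14 and 0.82 at 24 h, which did not pass. RGS16, ITGB3 and DHRS3 measured 0.18, -0.01 and -0.56 at 24 h. The difference between the durations was tested directly in limma and was past the threshold for 0 of the 21 genes. Its smallest adjusted p among them was 0.069, for RGS16, DHRS3 and ENST00000661223. Over all genes, 2 passed (0.0112%), neither beyond 2-fold, and 891 had an unadjusted p under 0.05. Of the 137 changed genes with a symbol, 57 of the 65 higher and 67 of the 72 lower ones had the same sign at 24 h. No share of equal sign over all genes is given, so these counts and the 18 of 21 cannot be read as particular to the changed genes. Of the 137, 11 passed at 24 h. These were ANGPTL4, IMPA2, CPT1A, ACAA2, ECH1, ACSL3, ABCA1, LPCAT3, SNTB1, TMEM154 and KLF2. For CPT1A the value was 0.69 at 24 h and 0.82 at 72 h, and for LPCAT3 0.73 and 0.42.

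The 1 µM dose at 72 h was compared with the IC50 dose for these genes only. All G-1 1 µM arrays lay on a slide of their own, scanned in another session, so dose and slide cannot be told apart, and both doses share the same 4 DMSO arrays. Of the 21 genes, 14 differed between the doses at an adjusted p under 0.05 (limma), against 68.1% of all genes tested. In 4 of them the higher dose was further from DMSO. ANGPTL4 was at 7.86 above DMSO with 1 µM and 6.07 with the IC50, MGLL at 2.19 and 1.01, DHRS3 at -2.69 and -2.17, and CELA1 at -3.87 and -1.24. The CELA1 probe was above background on 0 of the 1 µM arrays. In the other 10 the difference ran the other way. All 21 genes were picked for their IC50 values, so a smaller distance at the other dose is partly fixed by that choice. The 10 include TMEM169 and ENST00000416502, which were tested only through the G-1 IC50 72 h group. RGS16 and PLEKHS1 were at -0.04 and 0.08 against DMSO with 1 µM, and SLC44A5 at -0.11. ITGB3 was at -0.64 with 1 µM and -1.73 with the IC50. ACSBG1 was at -1.81 with 1 µM and 1.46 with the IC50 (adjusted p between the doses 9.2e-10), with 1 of 4 arrays of 1 µM above background. PDK4 (1.45 and 1.82) and ENOX1 (-1.20 and -1.34) did not differ between the doses past the threshold. SFRP4 was below background on all arrays of both doses, so the doses cannot be compared for it. The 137 changed genes were counted where the doses differed at an adjusted p under 0.05 (limma), which 68.1% of all genes tested did. Of the 65 that rose, 1 µM was above the IC50 for 23 and below it for 33. Of the 72 that fell, 1 µM was below the IC50 for 31 and above it for 23.

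**Figure D5:**
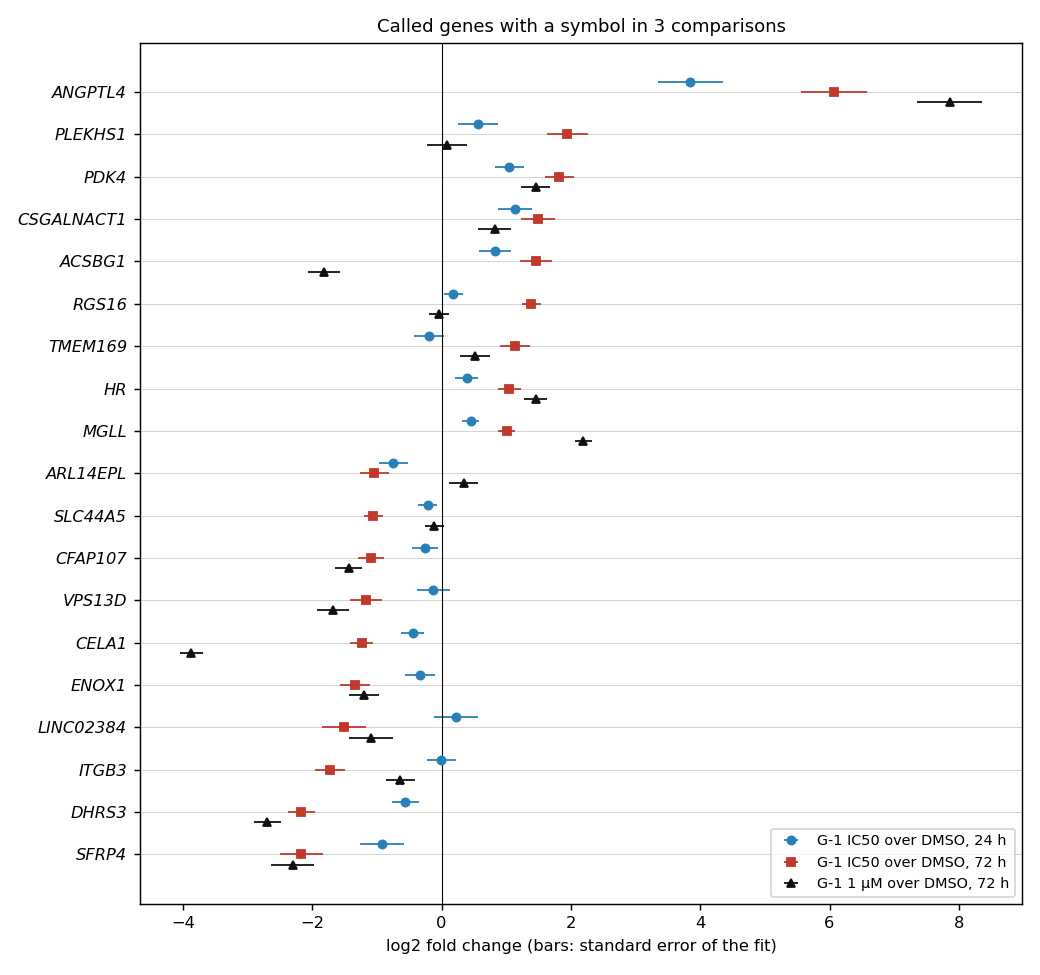
Log2 fold change (horizontal axis, bars: standard error of the fit) of the 19 called genes with a symbol for G-1 IC50 over DMSO at 24 h (blue circles) and 72 h (red squares) and G-1 1 µM over DMSO at 72 h (black triangles). The 72 h comparisons share their DMSO arrays. Most blue circles lie between 0 and the red squares, and the black triangle of ACSBG1 is on the other side of 0 at -1.81.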

How the data were processed

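Total RNA of U251 cells was labelled with Cy3 and hybridized to 24 Agilent arrays of 1 colour, 4 per group. For each array the authors deposited the intensity of every spot as Feature Extraction wrote it, background-subtracted and without normalization between arrays, with flags for outlier spots and spots well above background. The file headers give version 12.1.1.1 of this program and the submitters' processing notes 10.7.3.1, and the probe design refers to the hg19 build. A second file of log2 values per probe, deposited by the authors, matched log2 intensities minus the 75th percentile of the array, centred on each probe's median over the arrays (largest difference 0.00577 over 58118 probes). Its column medians lie between -0.345 and 0.556.

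Here, outlier spots were dropped, spots of 1 probe averaged on the log2 scale and the 75th percentile of each array subtracted. Probes were tested if at least 1 of the 6 groups had all its 4 arrays flagged above background (22970 of 58118, or 17927 genes, 14235 with a symbol). Of 58201 probes, 35032 were named through the RefSeq gene table (GRCh38.p14) by accession, and the other 23169 kept their own identifiers. A gene was named by its called or brightest probe. The 24 arrays entered a single limma 3.58.1 model of 6 group means (lmFit and eBayes) in R 4.3.3, with Benjamini-Hochberg adjustment over all tested probes, and genes with a probe past both thresholds, 0.05 for the adjusted p and 2 for the absolute fold change, were called. The fit was tested on simulated data. Fold changes against a group below background on all arrays are bounds, from the mean of the bright group and the lowest detected signal of each dim array. The number of arrays limits the precision.

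The genes named are those called, the 15 highest and 15 lowest of those with an adjusted p under 0.05, list members that passed, up to 3 members of a list in which none passed, and the estrogen receptors. A few others are marked as chosen after their values were seen. The comparison, its members and the 32 gene lists were chosen with earlier results of these data known, so no list is independent evidence. An entry of the sample labels gives the other duration for 2 groups outside the comparison, and the titles were used. Arrays with the same replicate number were not treated as pairs. Alternatives for scaling, background, filter, model, slide and single arrays are given at the end.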

Additional observations from a re-analysis of the deposited data

Results flagged for a closer look

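The fall in the G-1 IC50 effect from 24 h to 72 h passed the direct test of the difference for 2 genes, both of fatty acid synthesis and named because they passed. SREBF1, the transcription factor that drives lipid synthesis, was 1.02 above DMSO at 24 h and 0.17 at 72 h, a difference of -0.85 (-0.846; SE 0.13; limma, adjusted p = 0.018). ACACA, the acetyl-CoA carboxylase of the first step, was 0.66 above DMSO at 24 h and at -0.01 at 72 h, a difference of -0.67 (-0.670; SE 0.09; limma, adjusted p = 0.010). In both genes the DMSO and G-1 IC50 arrays overlapped at 72 h.

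Among 102 groups of 4 arrays of 51 named genes, 7 held a single array far from the other 3 by Dixon's criterion, and chance gives about 1 in 20 groups. On DMSO arrays, LINC02384 was at -2.55 in replicate 1 (others -2.30 to -2.26), ACSBG1 at -1.73 in replicate 3 (others -1.004 to -0.946), SLC44A5 at -0.0887 in replicate 4 (others -0.53 to -0.48), ACAA2 at 2.28 in replicate 1 (others 2.08 to 2.10) and SLC25A20 at 2.49 in replicate 4 (others 2.39 to 2.40). On G-1 IC50 arrays, SLC27A3 was at 2.75 in replicate 4 (others 3.03 to 3.07) and ECH1 at 4.75 in replicate 1 (others 4.61 to 4.63). In each of these genes the 2 groups stayed apart with the far array included.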

How the results depend on the processing

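The 21 called genes became 3 with normexp background correction, 13 (12 shared) with probes well above background on all 8 arrays, 144 without a fold threshold, and 38 and 4 by the methods' t-test before and after Benjamini-Hochberg adjustment. The other alternatives, the replicate block aside, gave 18 to 27, and leaving out single arrays 18 to 22. The 144 genes past an adjusted p of 0.05 became 66 with the 50th percentile, 87 with no filter on dim probes, 79 with the 8 arrays alone, 33 by the methods' t-test with adjustment, and 93 to 125 without single arrays (93 without G-1 IC50 replicate 2, the only one past 1.5 times). Genes beyond 2-fold for the difference between durations, 0 in the report, were 1 with normexp, 3 on the 16 arrays left when those of 1 µM are dropped, 3 with an intensity trend, 4 with the slide as a block, and 0 to 1 without single arrays (1 without G-1 IC50 72 h replicate 2 or 3). The 14 called genes that differed between doses were 8 with probes above background on all 8 arrays and 12 to 14 without single arrays. The 1074 separate genes were 1373 to 1655 without single arrays, as 3 against 4 arrays separate more easily (1655 without G-1 IC50 replicate 3). With the replicate number as a block, the 21 became 29 on 24 arrays and 15 on 8 arrays, the 144 became 341 and 60, and the 0 became 5 and, on 16 arrays, 7. Deviations of same-numbered arrays correlated at 0.31, 0.49, 0.37 and 0.05, and 3 of 4 G-1 IC50 arrays correlated best with the DMSO array of their own number. Since 1 value was under 0.1, the limit used for pairing, and no label ties the numbers together, they were not taken as pairs. The slide as a block on the 8 arrays, chosen after seeing the data, gave 21 and 97. Of 406 values of the 19 called genes with a symbol, 353 kept direction and significance, 53 lost significance and 0 reversed, and 21 of the 53 came from leaving out an array, in ARL14EPL, LINC02384, TMEM169 and VPS13D. The 406 values do not include the methods' t-test with adjustment, which kept 4 of the 21 called genes. Within them, 11 of the 19 lost significance in at least 1 alternative. PLEKHS1, SFRP4, TMEM169 and VPS13D lost it on the 8 arrays alone, and SFRP4, TMEM169, VPS13D and ARL14EPL with normexp. Within the 406 values, CFAP107, CSGALNACT1, ENOX1, HR and MGLL lost it only with the replicate block on the 8 arrays. The called probes of HR and MGLL have no value in the alternative with the brightest probe of each gene. The brighter probe of HR did not pass in the main fit (limma, adjusted p = 0.81). For several called genes the size differed between slide 1 and slide 2. It was -0.52 and -1.46 for VPS13D, 3.42 and 1.40 for PLEKHS1, and -3.1 and -1.75 for SFRP4. For ENOX1 it was -1.94 and -1.03, and for MGLL 1.52 and 0.80. For HR it was 1.38 and 0.95, and for CELA1 -1.52 and -1.12. No counts were run within a slide, where single arrays leave no test, nor of separate genes without the filter. Of the called probes, 10 are among the dimmest 20% of those tested, and signals near background limit what can be measured there.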
